A study of Mus musculus with 2 samples.

Results

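Single-cell RNA-seq of the embryonic mouse eye cup at e13.5 was used to follow 9 crystallin genes: Cryaa, Cryab, Cryba1, Cryba2, Cryba4, Crybb1, Crybb3, Crygd and Crygs. They are 9 of the 31053 genes in the count tables and were chosen by name, not by their level. The control library came from Myrf fl/fl mice, which carry floxed Myrf alleles and no Cre by their label, and the mutant library from Rx>cre Myrf fl/fl mice, which carry the same floxed alleles and a Cre recombinase under Rx, a homeobox gene of the early optic vesicle. Myrf encodes a membrane-bound transcription factor. Each genotype is 1 library made from 3 pooled samples, and per the labels the cornea, lens and optic nerve had been dissected away before the eye cups were dissociated. With 1 library per genotype there is no replicate error and no test between genotypes. The intervals given below are exact 95% intervals (Poisson for levels, Clopper-Pearson for shares, conditional binomial for ratios) and cover counting error only.

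Crystallins are the proteins that fill lens fibre cells and give the lens its transparency and refractive power. The α-crystallins Cryaa and Cryab are small heat shock proteins with chaperone activity, and Cryab is also made in many tissues outside the lens, among them muscle and glia. The β- and γ-crystallins are structural proteins of a separate family and are best known from lens fibres, where transcription factors of the large MAF family, together with PAX6, SOX and PROX1, switch their genes on through short elements close to the start site. Levels are given in CPM, the number of unique molecular identifiers (UMIs, each standing for 1 captured RNA molecule) of a gene per 1000000 UMIs of all genes in the same set of barcodes. In droplet data, RNA released by broken cells is captured with every cell, so that a UMI in a barcode does not by itself show that the cell made the RNA.

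Cryba4 and Crybb1 lie head to head on chromosome 5 of GRCm38. Cryba4 runs on the minus strand at chr5:112246493-112252518 and Crybb1 on the plus strand at chr5:112255815-112269585, and their start sites are 3297 bases apart, with no other annotated gene overlapping either. Crybb3 lies farther along the same chromosome at chr5:113075839-113081584 on the minus strand, Cryaa at chr17:31677807-31681733 on the plus strand and Cryab at chr9:50751325-50756636 on the plus strand. The 250 bases upstream of the RefSeq start site (GRCm38.p6) are shown for Cryba4 and Crybb1, whose UMIs lay mainly in macrophage-like barcodes, and for Cryaa and Crybb3, whose UMIs were thin in every class. Each is written 5′ to 3′ in the direction of its gene, ending at the base before the start, and capitals mark TGCTGA, the core site bound by MAF proteins, or its reverse complement TCAGCA.
Cryba4, chr5:112252519-112252768, minus strand: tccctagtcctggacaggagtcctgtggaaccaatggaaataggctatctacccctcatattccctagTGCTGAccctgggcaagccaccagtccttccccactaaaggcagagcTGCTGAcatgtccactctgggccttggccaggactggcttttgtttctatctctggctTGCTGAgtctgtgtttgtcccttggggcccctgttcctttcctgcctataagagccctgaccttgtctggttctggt
Crybb1, chr5:112255570-112255819, plus strand: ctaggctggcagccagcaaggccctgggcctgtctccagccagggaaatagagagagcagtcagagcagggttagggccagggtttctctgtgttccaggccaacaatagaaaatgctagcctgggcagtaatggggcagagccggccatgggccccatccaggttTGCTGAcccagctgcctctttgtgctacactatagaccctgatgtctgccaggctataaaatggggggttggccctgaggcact
Cryaa, chr17:31677681-31677930, plus strand: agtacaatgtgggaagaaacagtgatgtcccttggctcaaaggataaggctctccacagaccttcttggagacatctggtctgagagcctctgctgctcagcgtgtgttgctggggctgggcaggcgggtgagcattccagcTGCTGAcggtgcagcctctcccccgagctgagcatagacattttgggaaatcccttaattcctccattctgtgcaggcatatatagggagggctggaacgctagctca
Crybb3, chr5:113081585-113081834, minus strand: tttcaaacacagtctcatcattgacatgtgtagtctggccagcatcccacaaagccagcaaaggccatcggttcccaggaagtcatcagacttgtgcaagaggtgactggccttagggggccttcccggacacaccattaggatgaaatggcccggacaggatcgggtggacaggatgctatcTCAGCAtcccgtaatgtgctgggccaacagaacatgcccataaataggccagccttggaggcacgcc

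The window of Cryba4 holds 3 MAF core sites and those of Crybb1, Cryaa and Crybb3 hold 1 each. An upstream window was at hand for 8 of the 9 genes, and 7 of the 8 held at least 1 core site on either strand, against 16.1% of the 32851 windows of the same length in the table. At least 3 core sites were present in 0.146% of all windows. GAGGAA, the core of the box bound by the myeloid factor PU.1, or its reverse complement TTCCTC was present in 2 of the 8 windows, those of Cryaa and Cryba1, against 23.3% of all, and in neither that of Cryba4 nor that of Crybb1. TATAAA or TTTATA was present in 3 of the 8 windows, those of Cryba1, Crybb1 and Crygs, against 12.4% of all. A match describes these letters and is not a binding site.

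The control library held 6039 barcodes with 63483835 UMIs and the mutant library 6754 with 75228861 UMIs. Of these, 5519 and 6374 passed the filters on genes and mitochondrial UMIs, 1196 and 1113 of them with under 2000 UMIs, and 72 barcode sequences occurred in both libraries. Barcodes fell into 14 classes named from marker genes and 7 clusters that could not be named. The crystallins and the lens markers were left out of the genes used to cluster. Haemoglobin genes took 6.0% of the control's UMIs and 11.6% of the mutant's.

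The 9 genes ranged from 1 UMI to 1563 in the control. Taking the control first and the mutant after it, Cryab had 1563 and 1282 UMIs, Cryba4 329 and 388, Crybb1 275 and 130, Crybb3 159 and 53, Cryaa 154 and 25, Cryba1 116 and 22, Cryba2 35 and 5, and Crygd 31 and 9. Crygs, the γ-crystallin of mature lens cortex, had 1 UMI in the control and 0 in the mutant and enters below only within a sum. Cryab therefore made up 58.7% (interval 56.8 to 60.6%) of the UMIs of the 9 genes in the control, against 67.0% (64.8 to 69.1%) for the mutant.

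Lens cells were looked for with 14 other lens genes, among them the lens channel Mip, the beaded filament proteins Bfsp1 and Bfsp2, the gap junction protein Gja3, the membrane protein Lim2 and the transcription factors Foxe3, Pitx3 and Hsf4. Of the 14, 7 reached 10 UMIs in each library. Foxe3 and Dnase2b, the nuclease that clears the nucleus of lens fibres, were at 0 in both libraries. At the limit of 3 or more of the 14, 9 control barcodes (0.163%, interval 0.0746 to 0.309%) and 7 mutant barcodes (0.110%, 0.0442 to 0.226%) qualified. They did so mostly through Bfsp2 (8 control and 7 mutant barcodes), Mip (8 and 6) and Lim2 (6 and 6). All 16 fell in the cluster called RPE-like (retinal pigment epithelium) from its own markers.

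Crystallin UMIs in those barcodes were almost entirely Cryab. The 9 control barcodes held 66 UMIs of the 9 genes, of which 65 were Cryab and 1 was another member, and the 7 mutant barcodes held 66, every one Cryab. That is 2.51% (1.94 to 3.18%) and 3.47% (2.69 to 4.39%) of the genes' UMIs in the barcodes that passed. Their Cryab level, 443 CPM in the control and 478 CPM in the mutant, was close to that of the remaining RPE-like barcodes given below. They are therefore called barcodes with 3 or more lens markers, not lens cells, and are kept apart from the classes in what follows. No set of barcodes in either library could be named lens.

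The map of crystallin level by class shows 3 patterns. Cryab was high in a few classes and low in the rest, Cryba4 and Crybb1 were high in macrophage-like barcodes, and Cryaa, Cryba1, Cryba2, Crybb3 and Crygd were thin and widely scattered. These groups were formed after the levels were seen and are descriptions.

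**Figure D1:**
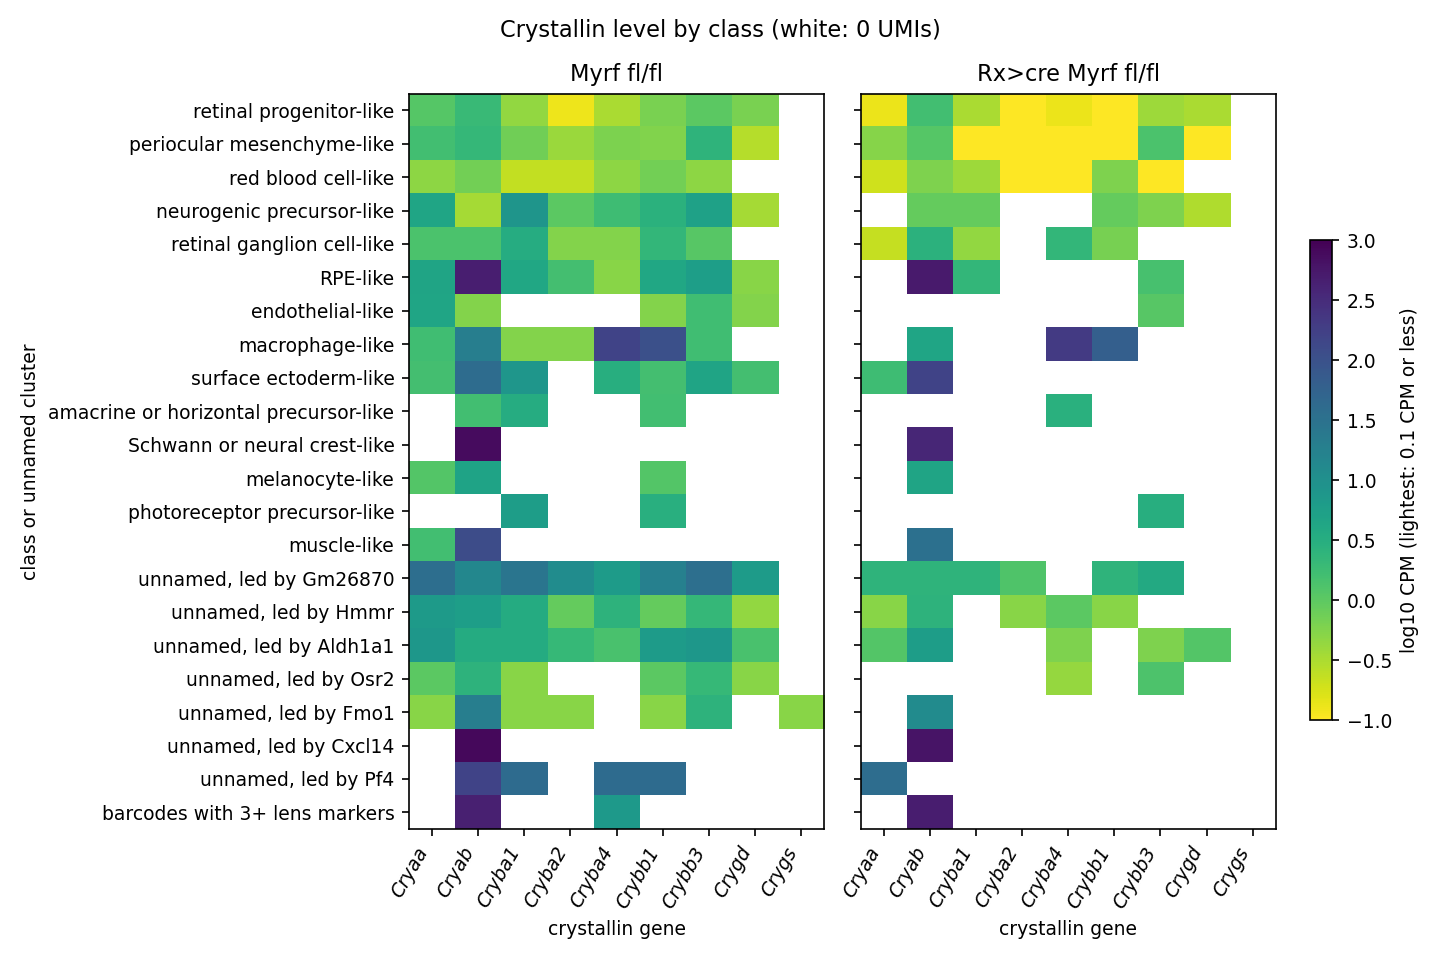
Level of the 9 crystallin genes (columns) in each class or unnamed cluster (rows) of the control (left) and mutant (right) library, as log10 CPM, where white marks 0 UMIs and the lightest colour 0.1 CPM or less. Cryab is darkest in the RPE-like, Schwann or neural crest-like and Cxcl14-led rows, and Cryba4 and Crybb1 are darkest in the macrophage-like row. The other genes are low in most rows and absent from more rows in the mutant. Their higher values include control Cryaa in the Gm26870-led row (35.7 CPM) and mutant Cryaa in the Pf4-led row (37.2 CPM, from 1 UMI).

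Cryab was carried mainly by the RPE-like class, the pigmented layer behind the retina. Its level there was 454 CPM (424 to 485, from 878 UMIs in 249 barcodes) in the control and 522 CPM (485 to 562, from 708 UMIs in 145 barcodes) in the mutant. These UMIs were 60.3% and 60.4% of all Cryab UMIs counting the barcodes with 3 or more lens markers. Cryab stood at 1.92 CPM in control and 1.62 CPM in mutant retinal progenitor-like barcodes, at 2.20 and 1.12 CPM in the periocular mesenchyme-like class, and at 0.710 and 0.585 CPM in the red blood cell-like class. The RPE-like class was the only one of the 2 pigmented classes with a high level, since melanocyte-like barcodes stood at 4.72 and 4.66 CPM from 4 and 3 UMIs. Of the 8 members with enough UMIs, 1 was 10-fold or more above all other clustered barcodes in the RPE-like class, against 2.73% of all genes tested.

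Within the RPE-like class, Cryab was spread over many barcodes. It was detected in 60.2% of control and 67.6% of mutant barcodes at median depths of 2774 and 3354 UMIs. The barcode richest in Cryab held 38 UMIs in the control, against 51 for the mutant, and the 5 richest together held 14.2% and 25.3% of the class's Cryab UMIs. After thinning each barcode to 2000 UMIs, Cryab was found in 69 of 141 control barcodes (48.9%, 40.4 to 57.5%) and 46 of 83 mutant barcodes (55.4%, 44.1 to 66.3%), with 108 and 62 shallower barcodes left out. In the red blood cell-like class, which should lack the gene, 1.44% of control and 1.23% of mutant barcodes held a Cryab UMI at median depths of 22476.5 and 22723.5 UMIs. Thinning left 0 of 180 and 0 of 429, which allows shares of up to 1.67% and 0.699%.

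Cryab UMIs in the RPE-like class grew with the depth of the barcode. RPE-like barcodes under 2000 UMIs stood at 468 CPM and deeper ones at 453 CPM in the control, a ratio of 1.03 (0.758 to 1.38), and at 557 and 521 CPM in the mutant, a ratio of 1.07 (0.747 to 1.49). Counted per 100 barcodes, Cryab went from 17.5 UMIs at a mean depth of 724 UMIs to 1347 UMIs at a mean depth of 25572 UMIs in the control. In the mutant it went from 27.6 to 1579 UMIs per 100 barcodes. In the same control barcodes the haemoglobin genes, which RPE cells do not use, gave 801 UMIs per 100 shallow and 797 per 100 deep barcodes. In the mutant they gave 729 and 1843 per 100.

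Cryab was also high in Schwann or neural crest-like barcodes. The level was 757 CPM (662 to 861, from 229 UMIs in 22 barcodes) in the control and 373 CPM (324 to 427, from 211 UMIs in 38 barcodes) in the mutant. Every other member stood at 0 UMIs in this class in both libraries, where 3 counts would be 9.91 CPM in the control and 5.30 CPM in the mutant. The 5 richest barcodes held 62.4% and 47.4% of its Cryab UMIs, and without them the level was 384 and 230 CPM. Of the 8 members, 1 was 10-fold or more above other barcodes in this class, against 6.19% of genes.

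In several smaller sets the 5 richest barcodes held most of the Cryab UMIs, but 5 barcodes are a larger part of a smaller set. An unnamed cluster led by Cxcl14, a chemokine gene of surface tissues, stood at 817 CPM (639 to 1029, 72 UMIs) in the control and 625 CPM (470 to 816, 54 UMIs) in the mutant, and its 5 richest barcodes held 81.9% and 70.4% of these UMIs. Without them this cluster still stood at 185 and 228 CPM. The Cxcl14-led cluster was small and shallow, with 60 control and 63 mutant barcodes at median depths of 1108 and 1081 UMIs. Of these, 53 and 56 had under 2000 UMIs. Muscle-like barcodes stood at 117 CPM and 33.5 CPM, falling to 12.1 and 8.52 CPM without the 5 richest. Of the 25 control and 29 mutant muscle-like barcodes, 10 and 10 held a Cryab UMI. Surface ectoderm-like barcodes stood at 39.0 CPM and 157 CPM, and at 14.7 and 83.4 CPM without the 5 richest. Of the 69 barcodes of this class in each library, 12 control and 25 mutant barcodes held a Cryab UMI. In an unnamed cluster led by Fmo1, 21 of 137 control and 12 of 144 mutant barcodes held one. The 5 richest there held 48.6% and 70.8% of its Cryab UMIs. In control macrophage-like barcodes 26 of the 35 Cryab UMIs came from 1 barcode. The order of the leading classes was the Cxcl14-led cluster, Schwann or neural crest-like and RPE-like in the control, where the intervals of the Cxcl14-led cluster and the Schwann or neural crest-like class overlapped. It was the Cxcl14-led cluster, RPE-like and Schwann or neural crest-like in the mutant, where those of the Cxcl14-led cluster and the RPE-like class overlapped.

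Over the 44 pairs of class and library, the genes whose log2 CPM was most like that of Cryab were Pdgfa, the platelet-derived growth factor A chain (Pearson r = 0.78), Sntb1, a syntrophin (r = 0.78), and Sfrp1, a secreted WNT antagonist (r = 0.74). These points share libraries and differ in depth, and the values only describe likeness. Cryab overlaps Hspb2, another small heat shock protein gene read from the opposite strand of chromosome 9. In RPE-like barcodes, 25 of 25 control and 18 of 19 mutant barcodes with an Hspb2 UMI also held a Cryab UMI. Of all RPE-like barcodes, 150 of 249 in the control and 98 of 145 in the mutant held one. The barcodes were not matched for depth.

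Cryba4 and Crybb1, both β-crystallins of lens fibres, were found mainly in macrophage-like barcodes, a class set by complement C1q genes and other myeloid markers whose leading genes also include S100a8, S100a9 and Cpa3, genes of granulocytes and mast cells. Cryba4 reached 159 CPM (141 to 178, from 285 UMIs in 125 barcodes) in the control and 205 CPM (185 to 228, from 365 UMIs in 136 barcodes) in the mutant. Crybb1 stood at 106 CPM (91.4 to 122, 190 UMIs) and 62.5 CPM (51.4 to 75.2, 111 UMIs). The class held 86.6% of the control's and 94.1% of the mutant's Cryba4 UMIs, and 69.1% and 85.4% of their Crybb1 UMIs. Against all other clustered barcodes this was 225-fold and 698-fold for Cryba4, and 77.9-fold and 262-fold for Crybb1. Both were among the members 10-fold or more above other barcodes in this class, 2 of 8 against 5.1% of genes.

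Neither gene came with the other lens crystallins there. Cryaa had 3 UMIs in control macrophage-like barcodes and Crybb3 had 3, and the mutant had 0 of each, where 3 counts would be 1.69 CPM. The next class for Cryba4 by UMIs was periocular mesenchyme-like in the control, with 11 UMIs (0.621 CPM), and retinal ganglion cell-like in the mutant, with 10 UMIs (2.22 CPM). RPE-like barcodes held 1 Cryba4 UMI in the control and 0 in the mutant.

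The C1q genes split the class further. Among barcodes with 3 or more UMIs of C1qa, C1qb and C1qc, Cryba4 reached 235 CPM (208 to 264) in the 102 control and 286 CPM (257 to 317) in the 109 mutant barcodes, and Crybb1 at 159 CPM (137 to 183) and 87.9 CPM (72.3 to 106). The 23 and 27 barcodes below that C1q limit stood at 8.33 and 7.79 CPM for Cryba4 from 5 and 4 UMIs, and at 0 UMIs of Crybb1, where the intervals reach 6.14 and 7.18 CPM. Barcodes below the limit had a median depth of 27066 UMIs (control) and 2220 UMIs (mutant), against 4512.5 and 5534 UMIs above it.

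Cryba4 and Crybb1 often occurred in the same barcodes. Of the C1q-positive barcodes, 36 control and 38 mutant barcodes held both, 22 and 27 held Cryba4 without Crybb1, 9 and 9 held Crybb1 without Cryba4, and 35 and 35 held neither. Barcodes with both made up 53.7% and 51.4% of those with either. The highest count was 21 Cryba4 UMIs in a control barcode and 27 in a mutant barcode, and 21 and 17 for Crybb1. The 5 richest barcodes held 31.6% and 30.1% of the class's Cryba4 UMIs and 44.7% and 42.3% of its Crybb1 UMIs. Without them the levels were 119 and 155 CPM for Cryba4 and 63.6 and 37.8 CPM for Crybb1.

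**Figure D2:**
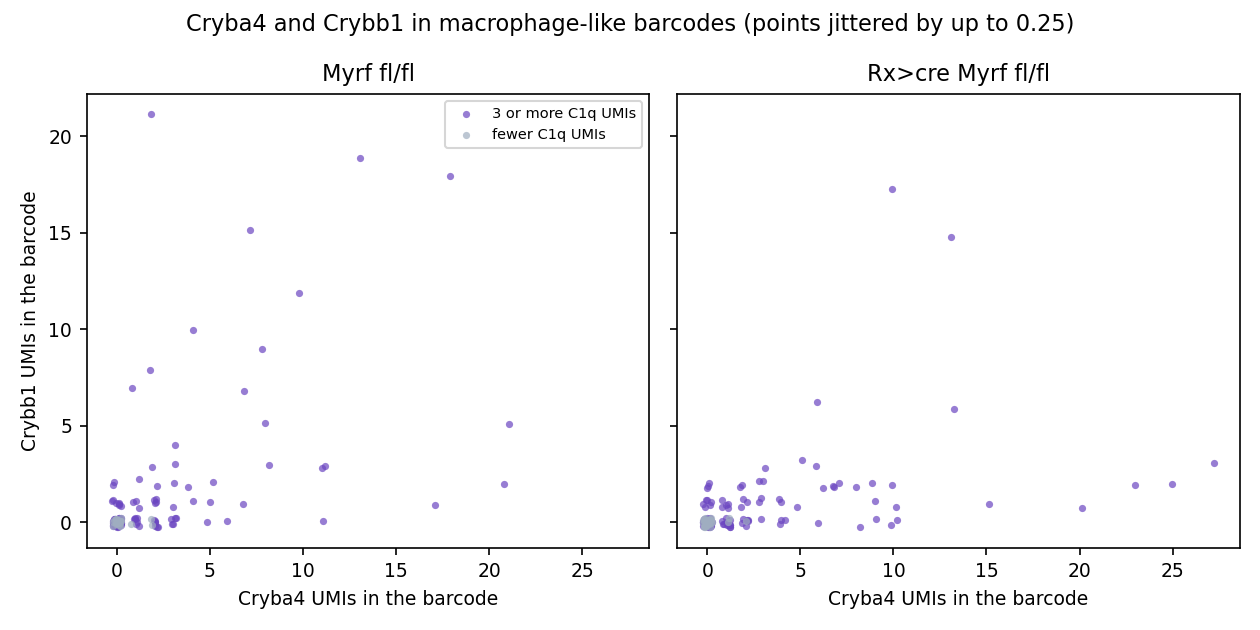
UMIs of Crybb1 (vertical axis) against UMIs of Cryba4 (horizontal axis) in each macrophage-like barcode of the control (left) and mutant (right) library, with points jittered by up to 0.25 UMIs and coloured by whether the barcode held 3 or more C1q UMIs. Barcodes with fewer C1q UMIs sit at or near 0 on both axes, and most barcodes with many Crybb1 UMIs also hold Cryba4.

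Counted against depth, Cryba4 in macrophage-like barcodes went from 42.9 UMIs per 100 barcodes at a mean depth of 629 UMIs to 474 at 33747 UMIs in the control, and from 14.3 to 500.0 per 100 barcodes in the mutant. Its CPM was higher in shallow barcodes in the control, 318 against 155 CPM, a ratio of 2.05 (1.08 to 3.56), and the mutant ratio was 1.16 (0.592 to 2.05). The genes most like Cryba4 over the 44 pairs of class and library were Cd52 (r = 0.91), a glycoprotein of leukocytes, Fcrls (r = 0.89), a marker of microglia, and Rgs18 (r = 0.87), a regulator of G protein signalling of blood cells. The same genes came first for Crybb1, with r of 0.87, 0.82 and 0.85. Maf, whose protein binds the core site marked above, had its highest level in the macrophage-like class, 242 CPM (220 to 266) in the control and 276 CPM (252 to 302) in the mutant, with the RPE-like class next at 79.6 and 83.4 CPM.

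The other members, Cryaa, Cryba1, Cryba2, Crybb3, Crygd and Crygs, are summed below as the 6 spread crystallins. In barcodes that passed, they gave 479 control and 112 mutant UMIs. No class stood out for their sum in the way that the RPE-like and macrophage-like classes did for the other genes. The 6 were grouped after the class levels were seen, so this describes the grouping and is not a finding. In classes and clusters with at least 50 barcodes, and without the richest barcode, they gave 0 to 14.5 UMIs per 100 barcodes in the control with a median of 7.18, although mean depth ranged from 1175 to 20311 UMIs. In the mutant they gave 0 to 3.45 per 100 with a median of 1.39. On the CPM scale the same classes ran from 0 to 116 in the control and from 0 to 10.0 in the mutant, with the control's top value in a shallow unnamed cluster led by Gm26870.

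Per barcode, the 6 spread crystallins changed little with depth over all barcodes that passed. Control barcodes under 2000 UMIs gave 8.28 UMIs per 100 and deeper ones 8.81, a ratio of 0.940 (0.746 to 1.18), while mean depth differed 14.9-fold. Mutant barcodes gave 1.35 and 1.85 per 100, a ratio of 0.730 (0.393 to 1.26). The level in CPM was therefore higher in shallow barcodes, 86.8 against 6.19 CPM in the control (14.0-fold, 11.1 to 17.5) and 13.6 against 1.32 CPM in the mutant (10.3-fold, 5.54 to 17.8). Over 6 bins of depth, from a mean of 692 to a mean of 26553 UMIs, the control values were 5.31, 13.3, 13.3, 12.3, 6.68 and 8.21 UMIs per 100 barcodes.

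The pooled value mixes classes of different depth, and single classes varied. In RPE-like control barcodes the spread crystallins gave 4.63 UMIs per 100 shallow barcodes and 19.1 per 100 deep barcodes, from 5 and 27 UMIs. In the Gm26870-led cluster they gave 9.58 and 47.2 per 100, a CPM ratio of 1.04 (0.666 to 1.63). In the Aldh1a1-led cluster they gave 8.99 and 9.30 per 100, and in endothelial-like barcodes 7.89 and 8.49. All 8 members with enough UMIs were 2-fold or more higher in shallow than in deep control barcodes by CPM, against 33.5% of all genes, with a median log2 ratio of 3.65 against 0.66. In the mutant it was 6 of 6 members against 34.6% of genes, with medians of 2.34 and 0.65. Cryab, Cryba4 and Crybb1 are among these members, and shallow and deep barcodes hold the classes in different shares. Within the RPE-like class the Cryab ratio given above had an interval that included 1 in both libraries, as did that of Cryba4 in mutant macrophage-like barcodes.

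**Figure D3:**
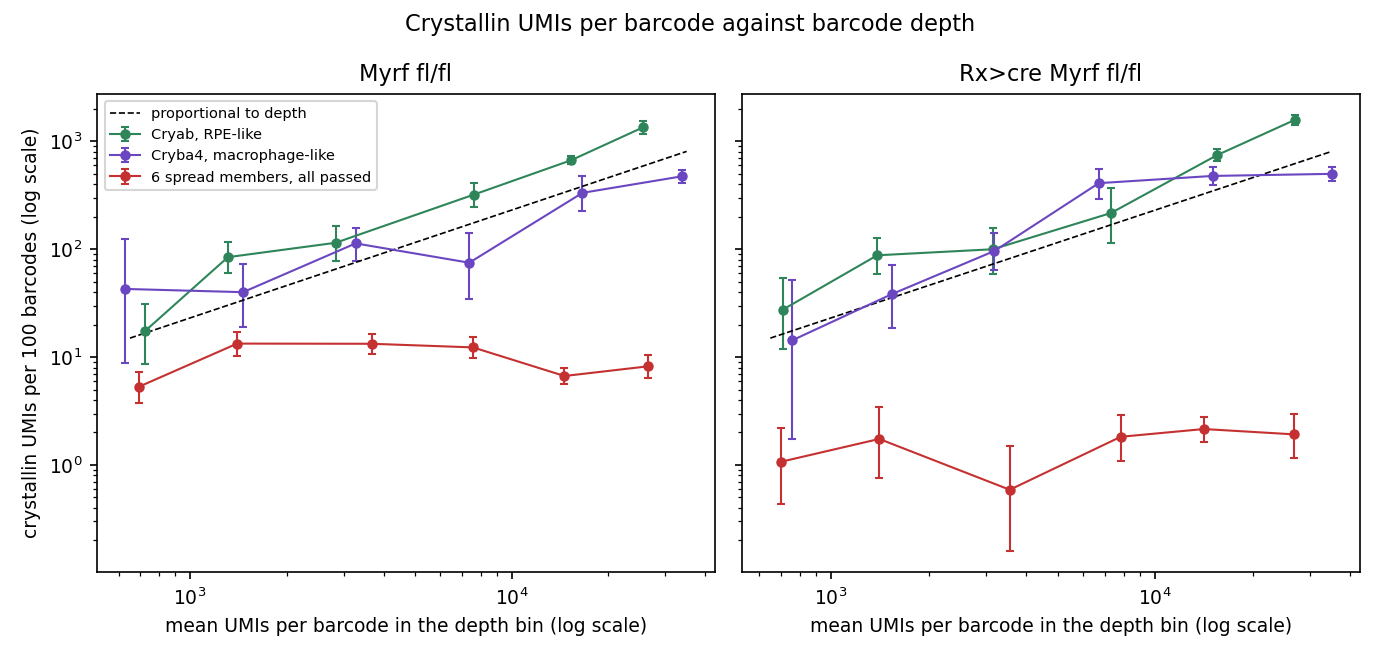
UMIs per 100 barcodes (vertical axis, log scale) against mean UMIs per barcode in each depth bin (horizontal axis, log scale) for Cryab in RPE-like barcodes, Cryba4 in macrophage-like barcodes and the 6 spread crystallins in all passed barcodes, with exact 95% Poisson intervals as bars and a dashed line of direct proportion to depth. Cryab climbs with depth in both libraries, from 17.5 to 1347 per 100 in the control, Cryba4 climbs less evenly, and the spread crystallins lie between 5.31 and 13.3 per 100 in the control and at or below 2.15 per 100 in the mutant.

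A single control barcode held 28 UMIs of the spread crystallins. It was classed as neurogenic precursor-like, had 9985 UMIs and was not marked as a doublet. It held 6 UMIs of Cryaa, 10 of Cryba1, 2 of Cryba2, 9 of Crybb3 and 1 of Crygd, with 5 of Crybb1, 1 of Cryba4 and 0 of Cryab. It also held 2 of the 14 lens markers, Bfsp1 and Grifin. The next richest barcode held 11.

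The mix of the 6 spread crystallins was compared between classes and all other barcodes of the library, those removed by the filters included and the macrophage-like class and the control barcode with 28 such UMIs left out. The source of these UMIs was not tested. Crybb3 made up 44.9% (34.8 to 55.3%) of their 98 UMIs in control periocular mesenchyme-like barcodes and 28.5% (23.9 to 33.4%) of the 362 elsewhere. In the mutant it was 65.2% (49.8 to 78.6%) of 46 UMIs and 33.8% (22.8 to 46.3%) of 68 elsewhere. The intervals did not overlap in either library. In CPM, Crybb3 was at 2.49 in the control and 1.35 in the mutant in that class, against 0.473 and 0.0975 in red blood cell-like barcodes from 2 and 1 UMIs. Other control sets stood higher, among them the Gm26870-led cluster (34.4 CPM), the Aldh1a1-led cluster (7.67 CPM) and RPE-like barcodes (5.69 CPM). Mutant levels were 3.75 CPM in the Gm26870-led cluster and 1.48 CPM in RPE-like barcodes, from 3 and 2 UMIs.

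In retinal progenitor-like barcodes, Crygd took a larger share of the mix in the control. It made up 18.9% (9.44 to 32.0%) of the 53 spread-crystallin UMIs there in the control and 4.91% (3.03 to 7.49%) elsewhere, and 26.3% (9.15 to 51.2%) of 19 against 4.21% (1.16 to 10.4%) elsewhere in the mutant. The control intervals did not overlap and the mutant intervals did. These shares rest on 10 and 5 Crygd UMIs. Cryge, a γ-crystallin gene next to Crygd on chromosome 1, gave more UMIs in the same class, 235 in the control (15.04 CPM) and 169 in the mutant (10.9 CPM), or 58.6% and 71.3% of its UMIs. The class held 15620709 of the control's 63483835 UMIs. In the control, Cryge was higher per UMI in the unnamed clusters led by Gm26870 (39.6 CPM), Aldh1a1 (18.1 CPM) and Hmmr (17.6 CPM), with the last 2 intervals overlapping that of the retinal progenitor-like class. Within the last 300 bases of the Cryge transcript, 43.0% of the 251 windows of 50 bases also occur in Crygd or Crygf transcripts, so reads cannot always be told apart and the level of each of these genes is uncertain. None of the windows in the last 300 bases of the longest transcript of each of the 9 crystallins was shared with another gene. Some Cryge windows still occur in Crygd transcripts, so the level of Crygd stays uncertain.

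**Figure D4:**
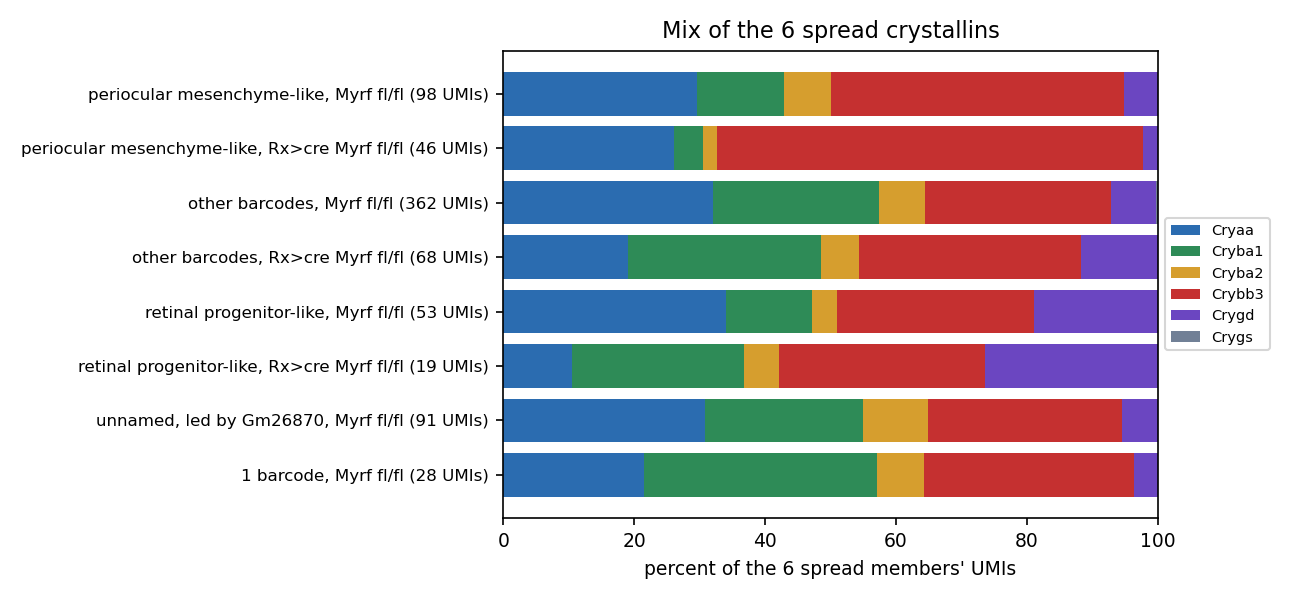
Share of each of the 6 spread crystallins in their summed UMIs (horizontal axis, percent) for periocular mesenchyme-like barcodes, the other barcodes they are compared with, retinal progenitor-like barcodes, the Gm26870-led cluster and the single control barcode with 28 such UMIs, with the number of UMIs beside each bar. Crybb3 takes 44.9% and 65.2% of the periocular mesenchyme-like bars, and Crygd 18.9% and 26.3% of the retinal progenitor-like bars.

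Among the other γ-crystallins, Cryga had 53 control and 5 mutant UMIs, Crygb 29 and 10, Crygc 35 and 18, Crygf 5 and 3, and Crygn, a divergent member, 59 and 38. Crybb2 had 1 and 0. Crygn had its highest named-class level in RPE-like barcodes, at 6.72 and 5.90 CPM from 13 and 8 UMIs. Crygc had 37.1% and 55.6% of its UMIs in retinal progenitor-like barcodes, from 13 and 10 UMIs (0.832 and 0.648 CPM). That class held 15620709 of the control's 63483835 UMIs and 15433951 of the mutant's 75228861. By level, control Crygc was higher in the Gm26870-led cluster, at 7.65 CPM from 6 UMIs.

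Between the libraries, the spread crystallins were lower in the mutant. Their sum was 7.65 CPM in the control against 1.50 CPM in the mutant, which is a log2 ratio of -2.34 (-2.66 to -2.05) or 5.09-fold. The log2 ratio was -2.82 for Cryaa, -2.63 for Cryba1, -2.80 for Cryba2, -1.79 for Crybb3 and -1.79 for Crygd, and each interval lay below 0. Of the 8 members tested, 6 were 2-fold or more lower in the mutant, against 2.66% of all genes, with a median log2 ratio of -1.79 for the members and -0.13 for all genes. These 6 were Cryaa, Cryba1, Cryba2, Crybb3, Crygd and Crybb1. Crybb1 is not a spread crystallin, and Crygs had too few UMIs to be tested. Each genotype is 1 library, and the genotype cannot be told apart from the library.

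The difference in the spread crystallins appeared in many classes. Of the 12 classes and clusters with at least 10 of these UMIs, 12 were lower in the mutant and 10 had intervals below 0, with log2 ratios from -3.38 in the Gm26870-led cluster to -0.92 in red blood cell-like barcodes. Periocular mesenchyme-like barcodes showed a log2 ratio of -1.40 (-1.96 to -0.90) and retinal progenitor-like barcodes -1.42 (-2.30 to -0.68). Haemoglobin UMIs outside red blood cell-like barcodes stood at 3480 CPM in the control and 5539 CPM in the mutant, a log2 ratio of 0.67. Neither the part that RNA shared by the whole suspension had in these differences nor that of the genotype was tested.

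The 3 members that were high in some classes, Cryba4, Cryab and Crybb1, differed among themselves. Over all barcodes that passed, Cryba4 had a log2 ratio of -0.01 (-0.23 to 0.21), Cryab -0.55 (-0.66 to -0.44) and Crybb1 -1.33 (-1.65 to -1.03). Within the RPE-like class Cryab was 0.20 higher in the mutant on the log2 scale (0.06 to 0.35). Without the 5 richest barcodes of each library, the RPE-like levels were close, at 411 CPM in the control and 424 CPM in the mutant. Those 5 held 14.2% of the control's and 25.3% of the mutant's RPE-like Cryab UMIs. The class held 249 control and 145 mutant barcodes beside the lower total over the mutant library. Cryab was lower in the mutant in Schwann or neural crest-like barcodes, at -1.02 (-1.30 to -0.74), and in muscle-like barcodes, at -1.77 (-2.55 to -1.11), and higher in surface ectoderm-like barcodes, at 1.97 (1.36 to 2.71), each from few barcodes with high counts.

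In macrophage-like barcodes the neighbouring genes Cryba4 and Crybb1 differed in opposite directions between the libraries. Cryba4 was 0.37 higher in the mutant on the log2 scale (0.14 to 0.60) and Crybb1 was lower, at -0.76 (-1.11 to -0.42). Both intervals exclude 0 for counting error, but the spread between barcodes is wider than counting error, with 5 barcodes holding between 30.1% and 44.7% of each gene's UMIs. With a mitochondrial limit of 5%, Cryba4 was 146 CPM (128 to 166) for the control and 163 CPM (143 to 185) for the mutant, and these intervals overlap, while Crybb1 stood at 105 and 49.3 CPM. After thinning to 2000 UMIs, Cryba4 was found in 31 of 93 control (33.3%, 23.9 to 43.9%) and 30 of 96 mutant macrophage-like barcodes (31.3%, 22.2 to 41.5%), with 32 and 40 shallower barcodes left out. Crybb1 was found in 20.4% (12.8 to 30.1%) and 14.6% (8.21 to 23.3%), and these intervals overlap. Before thinning the shares were 48.8% and 50% for Cryba4 and 36% and 34.6% for Crybb1. In red blood cell-like barcodes thinned alike, Cryba4 was found in 0 of 180 and 0 of 429 barcodes and Crybb1 in 0 of 180 and 1 of 429.

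**Figure D5:**
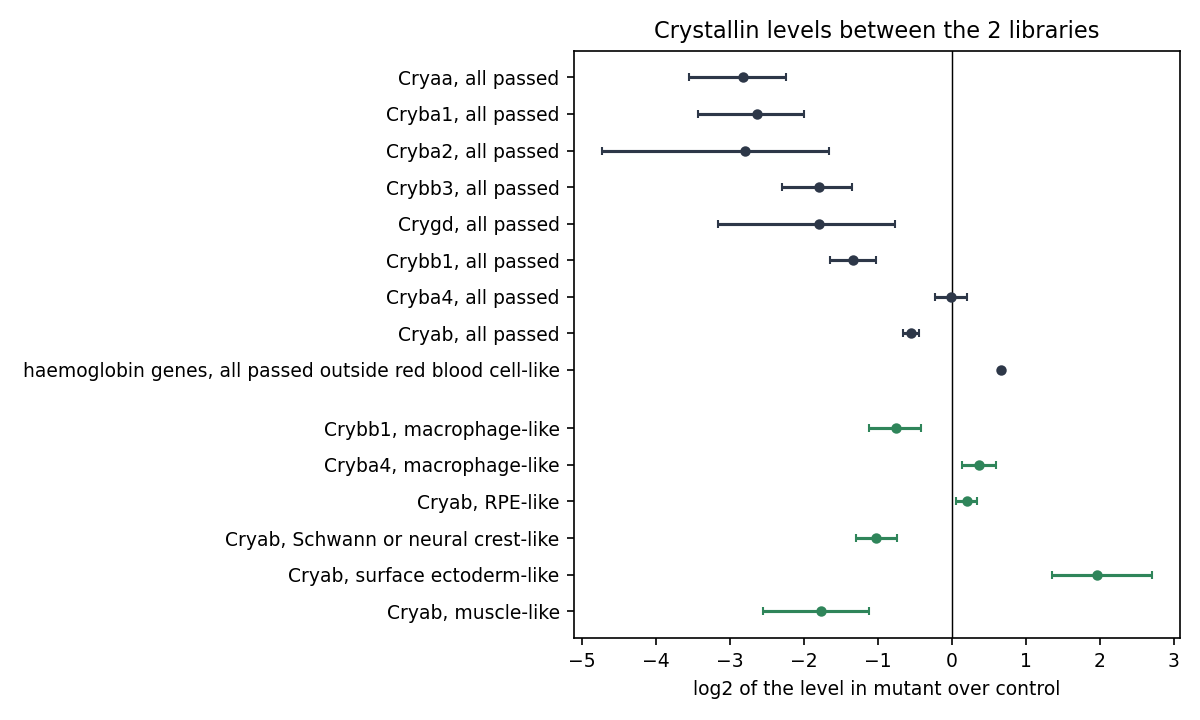
Log2 ratio of the level in the mutant to that in the control library (horizontal axis) for crystallin genes over all passed barcodes (dark) and within classes that hold them (green), with 95% intervals for counting error as bars and 0 as a vertical line. Cryaa, Cryba1, Cryba2, Crybb3, Crygd and Crybb1 lie below -1 over all barcodes, Cryba4 at -0.01, and Cryab lies on either side of 0 depending on the class.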

How the data were processed

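Eye cups of both genotypes at e13.5 were measured by 10X Genomics 3′ single-cell RNA-seq, 1 library of 3 pooled samples per genotype. The authors deposited UMI counts per gene and barcode, not normalized, on mm10 (the assembly GRCm38). The submitters' processing notes name Cell Ranger 7.1.0 and Seurat 4.1.1, while the matrix headers carry software version 3.0.0. Whether intronic reads were counted is not given in the sources used here. Per library the deposited counts sum to 63483835 and 75228861 UMIs, which sets the precision of each level. The mutant file holds slightly more barcodes than the paper states.

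Barcodes with at least 200 genes and at most 15% mitochondrial UMIs were kept. Scrublet (in scanpy 1.11.5, expected doublet rate 5%) marked 51 control and 74 mutant barcodes as doublets, which were not clustered. The rest were integrated by canonical correlation analysis and clustered in Seurat 5.3.0 (R 4.3.3; 2000 variable genes, 30 components, resolution 0.8) into 29 clusters. Clusters were named from marker lists, and the names are rebuilt, not the authors'. Counts were summed per class and library and given as CPM, with exact intervals from scipy 1.17.1. Shares of genes past a fold used genes with at least 10 UMIs and sums with 1 UMI added. No p-value was computed. The ratio and interval code was tested on simulated data.

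The members, lists and groups were chosen with earlier results of these data known. The genes named as alike were the 3 with the highest Pearson r of log2(CPM + 1) over classes and libraries, among genes with at least 50 UMIs. Gene positions are from GENCODE vM21 and upstream sequences from RefSeq on GRCm38.p6, in which Cryab had no entry. The alternatives were other lens marker limits, depth splits, filters, denominators, resolutions, doublet handling and merging without integration.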

Additional observations from a re-analysis of the deposited data

How the results depend on the processing

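Of 164 recomputed values for 30 results, 136 moved by less than their counting interval, 28 moved by more and none changed sign. Requiring 2 lens markers gave 37 control and 31 mutant barcodes with 9.0% and 13.8% of the crystallin UMIs, Cryab making up 84.8% in the control, and a Cryab log2 ratio of mutant to control of -0.67 in the rest. Requiring 4 gave 2 control barcodes and shares of 1.03% and 1.21%. Leaving mitochondrial, haemoglobin and ribosomal protein genes out of the denominator raised Cryab in control and mutant to 613 and 720 CPM in the RPE-like, 1013 and 517 CPM in the Schwann or neural crest-like and 173 and 50.6 CPM in the muscle-like class, and to 220 CPM in the mutant surface ectoderm-like class. It raised Cryba4 to 218 and 280 CPM and Crybb1 to 145 and 85.2 CPM in the macrophage-like class. A mitochondrial limit of 5% gave, in the mutant, Cryab at 584 CPM in RPE-like and 253 CPM in Schwann or neural crest-like barcodes and Cryba4 at 163 CPM and Crybb1 at 49.3 CPM in macrophage-like barcodes, and log2 ratios of -0.19 for Cryab and -0.24 for Cryba4. A depth split at 1000 UMIs gave a control ratio of 10.8 for the spread crystallins. With at least 50 UMIs per gene, 1.01% of genes were 2-fold lower in the mutant. The causes of these shifts were not tested beyond what each setting itself removes. Without the control barcode with 28 UMIs, an alternative chosen after seeing the data, as was keeping the barcodes with 3 or more lens markers in their class, the spread crystallins had a log2 ratio of -2.25. No paired analysis was possible because each genotype is 1 library. Classes under 50 barcodes and genes under 10 UMIs carry wide counting intervals, and genotype and library cannot be told apart.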

Other observations

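Other small heat shock protein genes, relatives of the α-crystallins, differed in where they were highest. Hspb1 was highest in muscle-like barcodes in the control, at 532 CPM (476 to 594), with surface ectoderm-like barcodes next at 451 CPM, and highest in surface ectoderm-like barcodes in the mutant, at 937 CPM (859 to 1020). Hspb8 was highest in surface ectoderm-like barcodes in both libraries, at 49.96 CPM (34.2 to 70.5) and 71.7 CPM (51.4 to 97.2). Hspb2, which overlaps Cryab, was highest in Schwann or neural crest-like barcodes, at 116 CPM (80.6 to 161) in the control and 58.3 CPM (40.1 to 81.9) in the mutant, a class where Cryab was also high. Hspb6 was highest in RPE-like barcodes in the control, at 5.17 CPM from 10 UMIs, and Hspb7 had 1 UMI in the control and 2 in the mutant.

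The 10 genes of lens regulators each had 10 or more UMIs in both libraries. Maf was highest in the macrophage-like class, as given above. Pax6 was highest in amacrine or horizontal precursor-like barcodes, at 1591 CPM in the control and 1483 CPM in the mutant, and Prox1 was highest in the same class at 49.3 and 66.4 CPM. Sox2 was highest in retinal progenitor-like barcodes, at 286 and 313 CPM, and Six3 in retinal ganglion cell-like barcodes, at 568 and 550.1 CPM.

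Several lens markers were also found in other classes. Bfsp2, a beaded filament protein, stood at 46.05 CPM (32.7 to 62.9) and 54.3 CPM (37.8 to 75.6) in melanocyte-like barcodes and at 43.4 CPM (34.6 to 53.8) and 50.9 CPM (39.6 to 64.4) in RPE-like barcodes, with overlapping intervals. The RPE-like values of Bfsp2 and Mip leave out the 16 barcodes set apart for their lens markers, most of which hold both, and are lowered by that choice. Pitx3 was highest in muscle-like barcodes, at 71.1 and 64.1 CPM. Mip had 60% of its 40 control UMIs and 39.1% of its 46 mutant UMIs in RPE-like barcodes.

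The barcodes removed by the filters also held crystallin UMIs. In the control, 520 such barcodes held 31 UMIs of the 9 genes (40.6 CPM, 27.6 to 57.6), of which 17 were of the spread crystallins. In the mutant, 380 held 11 (19.7 CPM, 9.82 to 35.2), of which 2 were.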
